A study of Mus musculus with 6 samples.

Results

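Cyclic nucleotide phosphodiesterases are the enzymes that hydrolyse cAMP and cGMP, and 9 of their genes were examined in regulatory T (Treg) cells that carry or lack the microRNA gene miR-142. The members were taken by symbol from the 24421 genes of the count matrix: Pde3b, Pde3a, Pde4a, Pde4b, Pde4d, Pde7a, Pde8a, Pde2a and Pde1b. The libraries came from splenic CD4+YFP+ Treg cells of female C57BL/6 mice aged 8 to 11 weeks, sorted and used without treatment. The WT group held 3 Foxp3Cre mice and the KO group 3 Foxp3Cre miR-142fl/fl mice, with 1 library per mouse. Mice of both groups carried the same allele, in which the Foxp3 gene drives a YFP-Cre fusion, so YFP marked the cells to be sorted and Cre removed the floxed miR-142 alleles in Foxp3-expressing cells of the KO mice alone. KO mice develop systemic autoimmune disease, so the deletion in the sorted cells and the state of the host cannot be told apart as sources of a difference. The deletion was measured first, and Mir142b, the annotated hairpin on the strand opposite to Mir142, fell from 6.33 ± 2.50 to 0.370 ± 0.0244 CPM (read counts scaled to a common library size; SD, n = 3 each). Mir142 itself had 0 counts in every library, and because counting ignored strand, reads from the overlapping hairpins cannot be told apart.

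cAMP is made from ATP by adenylyl cyclases, usually after a receptor coupled to the stimulatory G protein Gs is engaged, and acts through protein kinase A and the exchange factors Epac1 and Epac2. Phosphodiesterases end the signal, and the families differ in what they cleave and in what controls them: PDE4, PDE7 and PDE8 are specific for cAMP, PDE3 cleaves cAMP and is inhibited by cGMP, PDE2 cleaves both nucleotides and is stimulated by cGMP, and PDE1 is activated by calcium and calmodulin. Treg cells are known for a high cAMP content, which they can pass to other T cells, and the study considered Pde3b because it had been put forward as a miR-142 target in these cells.

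miR-142 yields a mature microRNA from each arm of its hairpin on chromosome 11, and a microRNA finds most targets by pairing of its seed with a 3′ UTR. The amounts of the mature arms were not measured in these libraries, so equal numbers of matches do not mean equal exposure. The RefSeq sequences (GRCm38.p6) are shown with the seed, bases 2 to 8, in capitals, because the sites below are defined by them. The arms lie at chr11:87756867-87756887 and chr11:87756903-87756925 on the plus strand.
miR-142-5p: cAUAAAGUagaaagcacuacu
miR-142-3p: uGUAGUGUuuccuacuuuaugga

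The longest annotated 3′ UTR of each member (GENCODE vM21, GRCm38) was searched on the transcribed strand for sites that pair with the seed: ACACTAC or CACTACA for miR-142-3p, the same shifted by 1 base, AACACTA or ACACTAA, for its form with an offset 5′ end, and ACTTTAT or CTTTATA for miR-142-5p. The windows that hold a site in the members most relevant to the comparison below are shown in the sense of the transcript, with the site in capitals. The first 3 are from the last exon of Pde3b (plus strand, chr7:114537797-114537825, chr7:114537803-114537831 and chr7:114537608-114537636), and the first of these sites shares its last base with the second, so the windows overlap.
Pde3b, miR-142-3p: atttaatgaatCACTACActttatttatt
Pde3b, miR-142-5p, adjoining: tgaatcactacACTTTATttattaaacat
Pde3b, miR-142-5p, upstream: ttcttcttatcCTTTATAcattattttga
The next 3 are from the last exon of Pde7a (minus strand, chr3:19227235-19227263, chr3:19223469-19223497 and chr3:19223448-19223476).
Pde7a, miR-142-3p: tccgtcccttcCACTACAttctctctgag
Pde7a, miR-142-5p, upstream: gtaaaatactaACTTTATcaattacattt
Pde7a, miR-142-5p, downstream: ttacattttaaACTTTATgtctaagtttt
The last is the single 8-base site found among the members, in Pde4b (plus strand, chr4:102606786-102606814).
Pde4b, miR-142-3p: aaaaataaacaACACTACAtttgatcaca

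Pde3b and Pde7a thus held the same number of matches to each arm, 1 for miR-142-3p and 2 for miR-142-5p, in 3′ UTRs of 3003 and 4528 bases. Pde4d held only an offset miR-142-3p match, Pde3a 1 offset miR-142-3p match and 2 miR-142-5p matches, and Pde4a, Pde8a, Pde2a and Pde1b none. Such matches are common in long 3′ UTRs. Among the 1245 tested genes whose 3′ UTR was within 1.2-fold of the length of that of Pde3b, 39.3% held a miR-142-3p match, 40.5% a miR-142-5p match and 16.8% both. For the 692 genes of a length near that of Pde7a the shares were 52.5%, 57.7% and 32.5%. For the 1567 genes of a length near that of Pde4b, 29.6% held a miR-142-3p match. A match is a string of letters, and binding was not measured in the data analysed here. The study examined the miR-142-3p match of Pde3b in a separate reporter assay, which these libraries do not include.

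**Figure D1:**
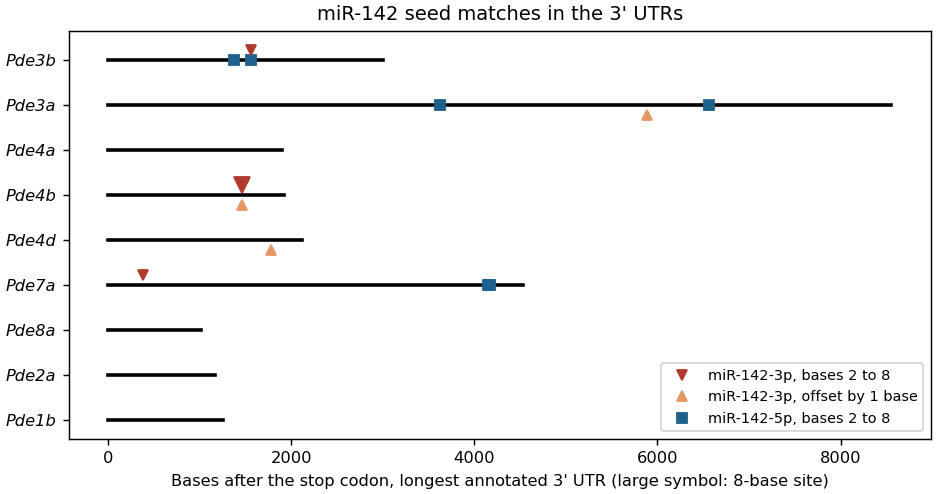
Each line is the longest annotated 3′ UTR of a member, drawn to scale in bases after the stop codon, and each symbol is a match to a miR-142 seed. Pde3b and Pde7a hold matches to both arms, Pde4b holds the 8-base miR-142-3p match, and 4 members hold none.

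The labelled cell type was seen in all libraries: of the 7 Treg and CD4 T cell markers listed, 6 were found in the matrix and all 6 had more than 3 counts in each library, with a summed level of 4608 to 5378 CPM in WT and 6416 to 7331 CPM in KO libraries. The higher KO sum came mostly from Il2ra (726 to 799 CPM in WT and 2258 to 3073 CPM in KO libraries). Foxp3 was at 536 to 595 CPM in WT and 642 to 749 CPM in KO libraries, whereas Cd4 (1005 to 1043 and 833 to 926 CPM) and Cd3e (626 to 733 and 590 to 594 CPM) had all KO libraries below all WT libraries. Total counts ran from 13883069 to 24042994 per library. KO replicate 1 stood apart in markers of other cells. The 12 macrophage and monocyte markers summed to 2951 CPM in KO replicate 1 and to 50.8 to 160 CPM in the other libraries, all 12 being above 3 counts in KO replicates 1 and 2 and 6 to 10 of them in the WT libraries. The 11 neutrophil markers found summed to 911 CPM in KO replicate 1, to 7.87 and 41.1 CPM in the other KO libraries and to 0.277 to 1.29 CPM in WT, where 6 to 8 of them were at 0. The 9 B cell markers summed to 319 against 9.31 to 41.9 CPM, the 6 CD8 T and NK cell markers to 76.7 against 20.1 to 55.7 CPM, and the 9 erythroid and platelet markers to 19.1 against 4.20 to 8.69 CPM. In the remaining KO libraries the B cell sums, 9.31 and 12.9 CPM, were below all WT libraries (30.6 to 41.9 CPM), while the macrophage, neutrophil, CD8 and NK, and erythroid sums were above them. Those higher sums rested on few genes. In KO replicates 2 and 3 Ccr2 (81.5 and 60.9 CPM) and Vcam1 (35.1 and 11.2 CPM) made up most of the macrophage sum, and Mpo (6.21 and 32.2 CPM) and Elane (1.21 and 4.31 CPM) most of the neutrophil sum, with S100a8 at 0 and 0.890 CPM. Without Eomes (29.8 to 42.0 CPM in KO and 4.35 to 6.69 CPM in WT), the CD8 and NK sums of these 2 libraries, 13.7 and 14.6 CPM, were below those of the WT libraries, 15.7 to 17.9 CPM. The part of these cells in the results was not tested. Values without KO replicate 1 are given below for Pde3b, Pde7a, Pde8a, Pde4a and Pde2a, in which it was the highest or lowest KO library. In bulk RNA, fewer cells of a type and less RNA per cell cannot be told apart.

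Of the 9 members, 8 passed the filter of more than 1 CPM in at least 3 libraries and entered the test. The edgeR quasi-likelihood F (QLF) test, adjusted over all 11658 tested genes, called 1 member higher in KO cells (Pde3b) and 1 lower (Pde7a) at a false discovery rate (FDR) under 0.05. Over all tested genes 18.8% were called, 11.6% higher and 7.27% lower, so 2 of 8 members is near the background. The median log2 change was 0.11 over the 8 tested members and 0.016 over all tested genes. The libraries of KO and WT did not overlap in 3 members, KO lying above WT in Pde3b and below it in Pde7a and Pde2a, against 41% of all tested genes, 22.2% above and 18.8% below. Levels below are CPM with TMM scaling.

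Pde3b, the cGMP-inhibited enzyme of the PDE3 family (chr7:114415281-114539251, plus strand), had 10.3, 14.8 and 16.4 CPM in WT replicates 1 to 3 and 50.5, 45.6 and 33.0 CPM in KO replicates 1 to 3. Every KO library was above every WT library, and the lowest KO library was about as far above the highest WT library as the KO libraries were from each other. The mean rose from 13.8 ± 3.17 to 43.0 ± 9.04 CPM (SD, n = 3 each), which was 3.11-fold in the fit (log2 change 1.63, SE 0.22, 95% CI 1.11 to 2.16, edgeR QLF FDR = 0.00441). Without KO replicate 1, which had the highest value, the log2 change was 1.48 (FDR = 0.00351). Its close relative Pde3a had 0 counts in all 6 libraries, where a count of 0 allows up to 3 counts, or 0.123 to 0.227 CPM depending on depth, so PDE3 transcripts were those of Pde3b as far as this depth shows. The 3 counts cover counting error only.

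Pde7a, a cAMP-specific enzyme with high affinity for its substrate (chr3:19223108-19311322, minus strand), had 78.2, 87.1 and 82.8 CPM in the WT libraries and 37.7, 45.8 and 41.2 CPM in the KO libraries. All KO libraries were below all WT libraries, and the values within each group differed by little. The mean fell from 82.7 ± 4.46 to 41.6 ± 4.04 CPM (SD, n = 3 each), with a log2 change of -0.99 (SE 0.10, 95% CI -1.23 to -0.75, edgeR QLF FDR = 0.00176). This was a 1.99-fold higher level in WT cells. Without KO replicate 1, which had the lowest value, the log2 change was -0.94 (FDR = 0.00124). Pde3b and Pde7a, which hold the same number of seed matches to each arm, moved in opposite directions. The count ratio of Pde3b to Pde7a within a library was 0.132, 0.170 and 0.198 in WT and 1.34, 0.995 and 0.801 in KO cells. This ratio needs no normalization between libraries, and its exact two-sided permutation p was 0.1, the smallest that 3 against 3 libraries can give (0.175 adjusted over the 28 pairs of tested members). The groups were already apart in opposite directions for these called genes, so the ratio had to separate and its p adds no support.

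**Figure D2:**
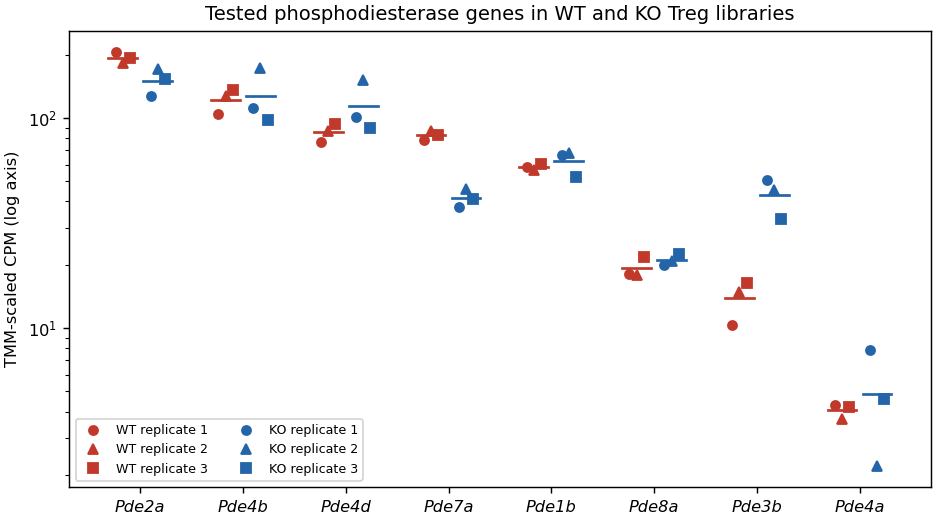
TMM-scaled CPM of the 8 tested members, on a log axis, with 1 symbol per library and a bar at the mean of each group. Pde3b lies higher in all 3 KO libraries (33.0 to 50.5 against 10.3 to 16.4 CPM) and Pde7a lower (37.7 to 45.8 against 78.2 to 87.1 CPM), and the KO libraries spread widest in Pde4a.

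Pde8a, the other cAMP-specific member outside PDE4 and one insensitive to many phosphodiesterase inhibitors, had 18.1, 17.9 and 21.9 CPM in WT and 19.9, 20.9 and 22.4 CPM in KO libraries. The groups overlapped, and the log2 change of 0.13 (95% CI -0.18 to 0.43) was not called (edgeR QLF FDR = 0.527). Without KO replicate 1 it was 0.15.

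The PDE4 enzymes are cAMP-specific, are the targets of rolipram and related drugs, and are prominent in lymphocytes and myeloid cells. Of the 3 PDE4 members 0 were called by the edgeR QLF test or DESeq2, and 0 had an unadjusted p under 0.05. Pde4b had 104, 127 and 136 CPM in WT and 111, 173 and 98.3 CPM in KO libraries, with KO replicate 2 the highest and KO replicate 3 the lowest of all 6. Its log2 change was 0.059 (SE 0.22, 95% CI -0.45 to 0.56, FDR = 0.872), and the sign turned to -0.22 without KO replicate 2 and to -0.070 without WT replicate 1. This is the member with the 8-base miR-142-3p match, and the interval holds changes of either direction.

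Pde4d had 76.7, 86.8 and 93.8 CPM in WT and 101, 151 and 89.2 CPM in KO libraries. KO replicates 1 and 2 lay above all WT libraries and KO replicate 3 lay among them. The log2 change was 0.41 (SE 0.20, 95% CI -0.051 to 0.87) and was not called (edgeR QLF FDR = 0.187). Without KO replicate 2 it was 0.16. Pde4a, a low member, had 4.31, 3.69 and 4.20 CPM in WT and 7.83, 2.20 and 4.58 CPM in KO libraries. The KO libraries lay on both sides of the WT libraries, with KO replicate 1, the library with the high macrophage, neutrophil and B cell sums, on top. The log2 change of 0.27 (95% CI -0.71 to 1.25, FDR = 0.688) became -0.27 without KO replicate 1.

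Within each group, the libraries had the same order for Pde4b and Pde4d, and the ratio of these PDE4 genes varied less than either level. Pde4b had 1.36, 1.46 and 1.45 counts per count of Pde4d in the WT libraries and 1.09, 1.14 and 1.10 in the KO libraries. The ratio was lower in each KO library than in each WT library, by 0.35 on the log2 scale in the mean, with SDs of 0.056 in WT and 0.033 in KO. The exact two-sided permutation p was 0.1, again the smallest possible (0.175 adjusted over 28 pairs). This pair was singled out after its values were seen. Most of the 28 pairs gave this same p, so a ratio that separates the groups is not particular to Pde4b and Pde4d.

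Pde2a, the cGMP-stimulated enzyme (chr7:101421691-101512827, plus strand), had 206, 182 and 192 CPM in WT and 127, 171 and 154 CPM in KO libraries. All KO libraries were below all WT libraries, and KO replicate 1 was the lowest. The log2 change of -0.36 (SE 0.12, 95% CI -0.65 to -0.077) had an unadjusted p of 0.0196 and did not pass the adjustment over all genes (edgeR QLF FDR = 0.0788). It was -0.27 without KO replicate 1 (FDR = 0.112) and -0.46 without KO replicate 2, where it was called (FDR = 0.0352). In GENCODE vM21, 64.3% of the exon bases of Pde2a are shared with Gm45837 on the same strand, a symbol not found in the count matrix. Pde1b, the calcium- and calmodulin-dependent member, had 58.6, 56.6 and 60.4 CPM in WT and 66.5, 68.1 and 52.1 CPM in KO libraries. Its groups overlapped, the KO libraries lying at both ends, and the log2 change was 0.088 (95% CI -0.19 to 0.36, FDR = 0.638).

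**Figure D3:**
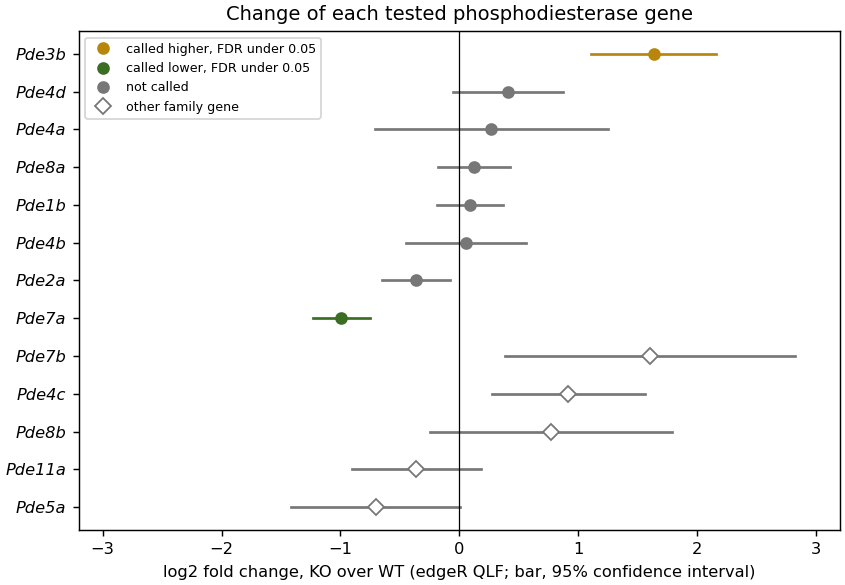
Log2 fold change of KO over WT with its 95% confidence interval for the 8 tested members (filled circles) and the 5 other tested phosphodiesterase genes (open diamonds). Only Pde3b (1.63) and Pde7a (-0.99) were called by the edgeR QLF test, and the intervals of Pde4d and Pde4b include 0.

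Between genes, levels were compared as CPM per kb of exon. In WT cells Pde2a was highest at 31.5 ± 1.95, followed by Pde4b, Pde1b and Pde7a at 11.6 ± 1.53, 10.9 ± 0.352 and 10.7 ± 0.575 CPM per kb, Pde4d at 7.14 ± 0.713, Pde8a at 4.77 ± 0.549, Pde3b at 1.52 ± 0.347 and Pde4a at 0.531 ± 0.0434 (SD, n = 3). The values of Pde4b and Pde1b overlapped, as did those of Pde1b and Pde7a, and all other neighbours were separate in the 3 WT libraries. In KO cells Pde2a was again highest at 24.5 ± 3.60, with Pde4b, Pde1b and Pde4d at 12.1 ± 3.78, 11.5 ± 1.63 and 9.49 ± 2.74 CPM per kb. Pde7a, Pde8a and Pde3b then stood together at 5.37 ± 0.522, 5.21 ± 0.320 and 4.72 ± 0.992, with overlapping values, and Pde4a was last at 0.636 ± 0.369. In the WT cells Pde7a had stood apart from Pde8a and Pde3b. The place of Pde4d depends on the length used. Per kb of the longest transcript, an alternative chosen after seeing the data, Pde4d came next after Pde4b in WT cells, at 20.4 ± 2.04, above Pde1b at 13.9 ± 0.451 and Pde7a at 13.1 ± 0.708 with no overlap, and Pde4b, at 28.4 ± 3.75, was separate from Pde1b. On that scale the KO values of Pde2a, Pde4b and Pde4d overlapped, at 35.7 ± 5.25, 29.6 ± 9.27 and 27.1 ± 7.83.

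The sum over all 21 cyclic nucleotide phosphodiesterase genes was 81.1 ± 2.63 CPM per kb in WT and 76.6 ± 11.3 in KO cells. This difference was smaller than the spread of the KO libraries (log2 change -0.091, exact two-sided permutation p = 0.5). KO replicates 1 and 3, at 71.3 and 69.1 CPM per kb, were below all WT libraries (79.5 to 84.1) and KO replicate 2, at 89.6, above them. Without KO replicate 2 the log2 change was -0.20 (exact permutation p = 0.1, the smallest possible). The groups had to be apart once the only KO library not below WT was left out, so this p adds no support. The make-up of the sum is given next, as the share of each gene in each library. The share of Pde3b was 1.42, 2.05 and 2.14% in WT and 7.77, 5.58 and 5.24% in KO libraries, a mean of 1.87 ± 0.392 against 6.20 ± 1.37%. Pde7a took 12.7, 14.1 and 12.7% in WT and 6.83, 6.60 and 7.70% in KO libraries, a mean of 13.2 ± 0.835 against 7.04 ± 0.580%. Both shifts exceeded the SD of either group.

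Pde4d took 8.03, 9.09 and 9.28% in WT and 11.9, 14.1 and 10.8% in KO libraries, so that the groups were separate as a share although they overlapped as a level. Pde2a took 42.1, 37.2 and 37.1% in WT and 28.9, 31.0 and 36.3% in KO libraries. The groups did not overlap, though the highest KO and lowest WT shares were close. The shares of Pde1b did not overlap either, at 13.6, 13.2 and 13.3% in WT and 17.3, 14.1 and 13.99% in KO libraries, but this depended on the scale. The difference of 1.74 percentage points became 0.898 with the longest transcript as length (exact permutation p = 0.7), 0.888 with no length scaling (p = 0.4) and 0.657 without KO replicate 1. On the main scale the shares of Pde3b, Pde7a, Pde4d, Pde2a and Pde1b each had an exact two-sided permutation p of 0.1, the smallest that the design can give, and 0.262 after adjustment over the 21 genes. The shares of the low family genes Pde4c, Pde5a and Pde7b, described below, had the same p, so separate shares were not particular to the members. The shares of a library sum to a fixed total, so a rise of 1 gene lowers the others. By family, PDE4 made up 24.2 ± 2.08% in WT and 29.6 ± 3.77% in KO cells, PDE7 and PDE8 together 19.8 ± 0.640 and 15.4 ± 1.19%, and PDE3 the share of Pde3b.

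**Figure D4:**
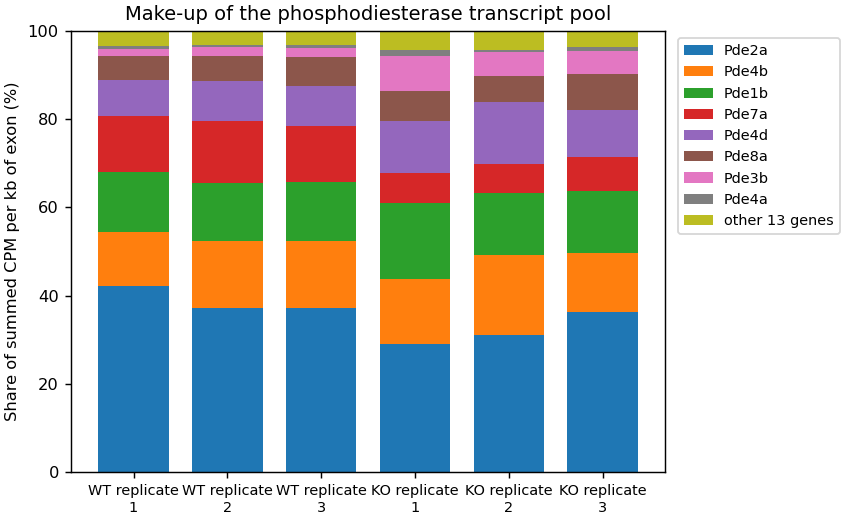
Share of each gene in the summed CPM per kb of exon of the 21 phosphodiesterase genes, 1 bar per library, with genes outside the 8 tested members combined. Pde2a is the largest block in every library (28.9 to 42.1%), and the KO libraries show a wider block for Pde3b and a narrower one for Pde7a.

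The rest of the family was low. Of 12 further genes, 5 passed the filter, and the edgeR QLF test called 0 of them, 2 having an unadjusted p under 0.05, against 18.8% called among all genes. Pde4c, the remaining PDE4 gene, had 2.96, 1.97 and 1.71 CPM in WT and 3.66, 4.77 and 4.11 CPM in KO libraries (log2 change 0.92, FDR = 0.0569). Pde7b, the paralog of Pde7a, had 1.11, 1.11 and 0.387 CPM in WT and 4.11, 1.36 and 2.46 CPM in KO libraries (log2 change 1.61, FDR = 0.0712). In both genes all KO libraries lay above all WT libraries, and Pde7b was highest in KO replicate 1. DESeq2 and the edgeR likelihood ratio and exact tests each called both genes higher. Pde4c alone was called by limma voom and by the QLF test with the newer quasi-dispersion (FDR = 0.0483). Without KO replicate 2 the QLF test called Pde7b alone (log2 change 1.92, FDR = 0.0358). The log2 changes of the paralogs Pde7b and Pde7a thus had opposite signs. The WT level of Pde7b, 0.0697 ± 0.0334 CPM per kb of exon, was far below that of Pde7a, and its log2 change was 1.11 without KO replicate 1. The cGMP-specific Pde5a (log2 change -0.70, FDR = 0.146), Pde8b (0.77, FDR = 0.251) and the dual-specificity Pde11a (-0.36, FDR = 0.31) were not called.

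Around the phosphodiesterases, 6 lists with 62 genes in all covered cAMP and cGMP synthesis, receptors, effectors, anchors and genes that bear the Pde name without the catalytic role. Of these, 41 were tested, 4 were called higher and 4 lower, against the 11.6 and 7.27% of all genes. Of the 10 adenylyl cyclases 4 were tested and 0 called by the edgeR QLF test, with 2 at an unadjusted p under 0.05 and 1, Adcy7, called lower by DESeq2. Without KO replicate 1 the QLF test called Adcy7 lower (log2 change -0.52, FDR = 0.0444) and Adcy9 higher (0.89, FDR = 0.015). The median log2 change of the 4 was -0.030.

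The list of Gs-coupled receptors, with Gnas for the alpha subunit of Gs, held 7 genes, of which 6 were tested, with 1 called higher, 1 lower and a median of 0.017. Ptger2, a receptor for prostaglandin E2, had 61.8 to 77.7 CPM in WT and 24.4 to 28.3 CPM in KO libraries (log2 change -1.38, SE 0.12, edgeR QLF FDR = 0.00101). Ptgir, the prostacyclin receptor, had 11.6 to 17.3 CPM in WT and 30.9 to 41.4 CPM in KO libraries (log2 change 1.25, SE 0.19, FDR = 0.00593). The groups were apart for both prostanoid receptors, in opposite directions. DESeq2 also called the adenosine receptor gene Adora2a lower (log2 change -0.39, FDR = 0.0463).

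Of the 11 guanylyl cyclases, which make cGMP, 4 were tested and 2 called, both lower, with a median log2 change of -1.03. Over all tested genes 7.27% were called lower. Gucy2g, a membrane guanylyl cyclase, had 30, 44 and 40 counts in WT libraries and 1 count in each KO library, so that the level was 29.7 times higher in WT by the summed counts (95% interval from counting error 9.90 to 146, edgeR QLF FDR = 0.000931). This gene entered the test through the WT libraries alone, where it was high. Gucy1a3, a subunit of the soluble nitric oxide receptor, had 24.7 to 42.2 CPM in WT and 11.9 to 18.8 CPM in KO libraries (log2 change -1.19, FDR = 0.0171). It was not called without WT replicate 1 (log2 change -1.21, FDR = 0.0571), without WT replicate 2 (-0.99, FDR = 0.0709) or without KO replicate 3 (-1.15, FDR = 0.0535). Without KO replicate 2, Gucy1b3, the partner subunit, was called lower (-0.77, FDR = 0.0463). Pde3b and Pde2a are the tested members whose activity cGMP controls, and cGMP itself was not measured.

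Of the 16 genes for effectors of cyclic nucleotides, 14 were tested, with 2 higher, 1 lower and a median log2 change of -0.15. Both exchange factors for Rap proteins were called, in opposite directions. Rapgef4 (Epac2) fell from 22.1 ± 1.84 to 4.40 ± 0.338 CPM (SD, n = 3 each), with no overlap (log2 change -2.33, SE 0.15, edgeR QLF FDR = 0.000508). Rapgef3 (Epac1) had 0.553 to 0.862 CPM in WT and 4.38 to 6.81 CPM in KO libraries (log2 change 2.92, SE 0.31, FDR = 0.00182). Being under 1 CPM in every WT library, Rapgef3 entered the test through the KO libraries alone, where it was high. Prkar1b, a regulatory subunit of protein kinase A, had 1.64 to 2.43 CPM in WT and 5.47 to 7.27 CPM in KO libraries (log2 change 1.67, SE 0.24, FDR = 0.0054). Leaving out a library added a call for Prkar2a, another regulatory subunit (without KO replicate 1, log2 change -0.77, FDR = 0.0251), and for the CREB coactivator gene Crtc3 (without KO replicate 2, -0.38, FDR = 0.026).

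Of the 13 anchoring and partner proteins, which hold phosphodiesterases and protein kinase A at their sites, 10 were tested and 1 called, which was higher, with a median log2 change of -0.011. Akap1, another such anchor, was also called higher by DESeq2 (log2 change 0.67, FDR = 0.0309), limma voom, the newer quasi-dispersion and without KO replicate 2 (0.81, FDR = 0.0277), where Akap8 was called lower (-0.34, FDR = 0.0486). Akap7, an anchor of protein kinase A, had 6.80 to 8.19 CPM in WT and 16.97 to 18.9 CPM in KO libraries (log2 change 1.25, SE 0.15, edgeR QLF FDR = 0.00259). Of the 5 genes that carry the Pde name without being catalytic cyclic nucleotide phosphodiesterases, 3 were tested and 0 called by the edgeR QLF test or DESeq2, with 1 at an unadjusted p under 0.05 (Pde4dip, a centrosomal and Golgi protein named for its binding to PDE4D, log2 change -0.38, FDR = 0.0934; without KO replicate 1, -0.53 and FDR = 0.0252).

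**Figure D5:**
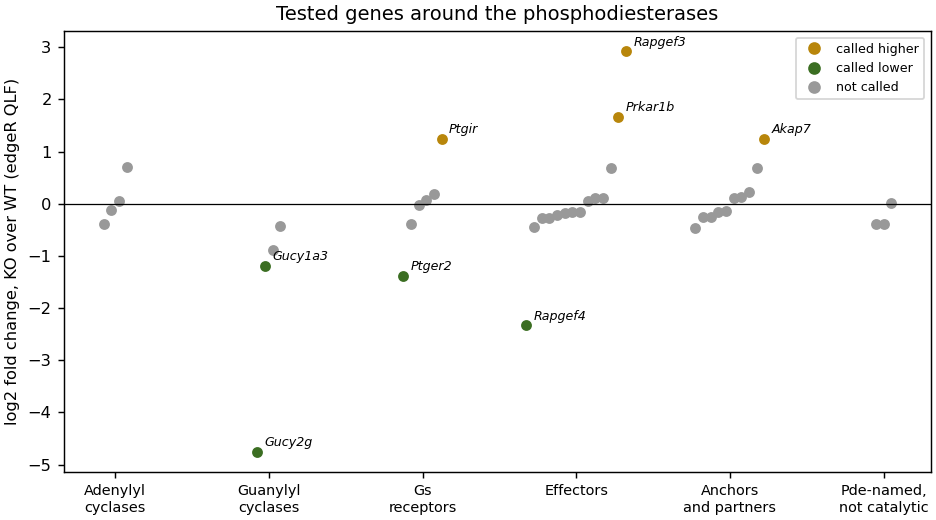
Log2 fold change of KO over WT for the 41 tested genes of the 6 lists, 1 point per gene, with genes called by the edgeR QLF test in colour and named. Both directions occur among the receptors (Ptgir 1.25, Ptger2 -1.38) and the effectors (Rapgef3 2.92, Rapgef4 -2.33). Rapgef3 entered the test through the KO libraries alone, and Gucy2g through the WT libraries alone.

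The tested genes whose pattern over the 6 libraries was nearest to that of Pde3b were found as those with the smallest root mean square difference of log2 CPM after centring on the WT mean. They were Epb4.1l1 (0.19), Prkar1b (0.23), Atrnl1 (0.24), Fam135a (0.24) and Pard6g (0.24). Fam135a, at 0.554 to 0.902 CPM in the WT libraries, entered the test through the KO libraries alone, where it was high. Epb4.1l1 had 2.53, 2.99 and 4.20 CPM in WT and 10.8, 8.40 and 8.21 CPM in KO libraries, which follows Pde3b in the order of the WT and of the KO libraries. Pard6g had 15.8, 18.0 and 19.1 CPM in WT and 56.0, 66.9 and 56.5 CPM in KO libraries. This likeness is a description over 6 libraries, with no test.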

How the data were processed

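RNA from sorted splenic Treg cells of 3 WT and 3 KO mice was sequenced as single-end reads of 51 bases. The authors aligned the reads with HISAT to mm10 and counted them per gene with featureCounts, ignoring strand; versions are not given in the sources used here. The deposited matrix holds raw counts, and all 6 sample columns were used.

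The test was that of edgeR 4.0.16, run in R 4.3.3 on genes above 1 CPM in 3 or more libraries (TMM, QLF test with the earlier quasi-dispersion, Benjamini-Hochberg adjustment over 11658 genes, FDR threshold 0.05), checked on simulated data. SEs and intervals come from the F statistic. Groups follow the labels. Alternatives used DESeq2 1.42.0, limma 3.58.1, other scalings and filters, and fits without each library. Gene models are from GENCODE vM21, to which 23376 genes matched by symbol and 651 by synonym (394 unmatched). CPM per kb used the summed exon length. Single values were compared with exact permutation tests, which cannot go below 0.1 here. The QLF p-values set the difference between groups against variation between mice, estimated with the help of all tested genes. The permutation p-values rank that difference among all divisions of the libraries into groups. Common dispersion gave a biological coefficient of variation of 0.212. A count of 3 was 0.123 to 0.227 CPM.

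The members and lists were chosen with earlier results of these data known. All members are named. Of the other lists, called genes are named, at most 4 per list, and the 5 genes nearest Pde3b in pattern. Further genes named for tests just past or short of the threshold, or for leaving out a library, and the other family genes, were chosen after their values were seen. The values of 1 gene of the lists are not reported here, and the counts of its list leave it out.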

Additional observations from a re-analysis of the deposited data

How the results depend on the processing

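Pde3b was called higher and Pde7a lower in all 17 alternative fits, which changed the scaling, the test, the filter or the libraries. The log2 change of Pde3b lay between 1.44 and 1.78 without single libraries and between 1.56 and 1.64 otherwise, and that of Pde7a between -1.06 and -0.94, and -1.07 and -0.99. At a threshold of 0.01, and with the QLF, likelihood ratio and exact tests required together, 1 member was again higher and 1 lower.

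The number of members called lower became 2 with library size alone (Pde2a log2 change -0.44, FDR = 0.0408) and with DESeq2 (-0.37, FDR = 0.029). Without single libraries it ranged from 1 to 2, the 2 being without KO replicate 2, and Pde2a ranged from -0.46 to -0.27. With library size alone 1064 genes were called higher and 1201 lower, 47% higher, against 1350 and 847, or 61.4%, with TMM. The cause was not tested.

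The sign of Pde4b turned with library size alone (-0.023), without WT replicate 1 (-0.070) and without KO replicate 2 (-0.22), within a range of -0.22 to 0.20 without single libraries. Pde4a turned without KO replicate 1 (-0.27), within -0.27 to 0.62. The share difference of Pde4b in the summed level ranged from -0.145 percentage points, without KO replicate 2, to 2.25, and that of Pde4a from -0.0616, without KO replicate 1, to 0.495. The summed level and the other shares kept their direction under the 9 alternatives tried, but not their size: the share difference of Pde1b ranged from 0.657 to 2.30 percentage points, that of Pde8a from 0.446 to 1.59, and the log2 change of the summed level from -0.20 to -0.033. The log2 ratio of Pde4d to Pde4b, an alternative added after seeing the data, ranged from 0.33 to 0.39 without single libraries.

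Same-numbered libraries of the groups did not deviate together (correlations 0.073, -0.012 and -0.19 over 11658 genes), so this check gave no sign that the numbers pair the mice. It cannot exclude a pairing, because the deviations of the few libraries in each group must sum to 0. With the replicate number as a block, 1 member was higher (Pde3b, log2 change 1.64) and 1 lower (Pde7a, -0.99), and 1061 genes were called higher and 545 lower over all. No WT library correlated best with the KO library of its own number, and of the KO libraries only replicate 1 did so.

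Rapgef3 without any 1 KO library, and Gucy2g and Pde5a without any 1 WT library, fell below the filter and gave no value. Depth limits the low members and the family genes near 1 CPM.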
